A study of Spongilla lacustris with 18 samples.

Results

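The genes named chitin synthase in the freshwater sponge Spongilla lacustris were followed in whole bodies exposed to tryptamine, a trace amine derived from tryptophan. The 15 genes were chosen by their name alone, as every row of a count table of 39562 genes whose annotation holds the words chitin synthase. All 15 passed the filter on low counts that left 24125 genes to test. The rule reads no measured value. The family itself was picked with results of these libraries in view, so each comparison is a description of these libraries and gives no independent support.

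Chitin is a linear polymer of N-acetylglucosamine, and chitin synthases are membrane enzymes that build it from the activated sugar UDP-N-acetylglucosamine. That sugar comes from the hexosamine pathway, whose last step is carried out by the enzyme that the gene UAP1 encodes. Chitin occurs in the skeleton of several sponges, freshwater species among them. Some animal chitin synthases carry a myosin motor domain.

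There were 6 groups of 3 polyA RNA libraries, all from wild-type whole bodies of juveniles kept for 9 days before treatment. Tryptamine was given at 37.5 µM for 1 h, for 4 h, or for 4 h with a washout and 24 h of recovery. The vehicle was 0.03% DMSO on the same 3 schedules. The labels do not say how many sponges went into a library or whether replicates were separate cultures, so p-values measure the spread between these libraries, which may be technical. Library totals were 11379345 to 23769406 counted read pairs, the second highest being 15798197.

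A whole body mixes cell types, and fewer cells of a type cannot be told apart from less RNA per cell. Markers of 3 cell types had counts in every listed gene, and their summed levels overlapped between tryptamine and DMSO on each schedule. At 4 h the 7 choanocyte flagellum genes (DNAH5, DNAI1, SPAG6 and others) summed to 422 to 524 CPM (counts scaled to library size) with tryptamine and to 442 to 521 CPM with DMSO. The 6 archaeocyte stem cell genes (MSI1,MSI2, PIWIL1, DDX4 and others) summed to 1201 to 1799 CPM with tryptamine and to 1378 to 1641 CPM with DMSO. The largest part was MSI1,MSI2, at 725 to 1433 CPM over all libraries. PIWIL1,PIWIL4,PIWIL3 had 202 to 415 CPM and DDX4 65.2 to 113 CPM. The 5 pinacocyte and contractile genes summed to 4166 to 5145 CPM with tryptamine and to 4573 to 4719 CPM with DMSO. The largest parts were c97890-g1, named MYL9, at 1775 to 2769 CPM, and c105153-g1, named TPM1, at 905 to 1962 CPM. These sums therefore say little about the markers of lower level. No gene carried the name silicatein, the marker listed for skeleton-building sclerocytes, so their share was not tested.

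The 15 ids fall into 7 assembled components, with 5 ids in c104626, 3 in c102134, 2 each in c104267 and c100476 and 1 each in c80825, c99066 and c100188. Their names rest on sequence similarity and give no identity beyond the family. Their summed transcript lengths ran between 305 and 6287 bases, and 8 ids were under 1000 bases. Ids of such length may be pieces of a longer transcript. Read pairs that matched several places were not counted, so counts of ids with near-identical sequence are uncertain. A transcript named for c104267 is listed under c102134-g3, so the grouping into components is not clean.

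One id held most of the family's reads. The level of c104626-g2, whose longest transcript has 4709 bases, averaged 353 CPM over the 18 libraries. It made up between 61.8% of the family's summed CPM, in DMSO 4 h replicate 2, and 85.5%, in tryptamine 4 h replicate 2. Per kilobase of all its transcripts summed its level was 56.2 CPM. Per kilobase of the longest transcript it was 75.0 CPM, and that of the next id, c102134-g4, was 30.4 CPM. The level of c104626-g6 was 25.7 CPM per kilobase on this scale, that of c100476-g3 25.3 and that of c100476-g2 20.9. The lowest was c104626-g1 at 2.12 CPM per kilobase. In 12 ids the mean was at least 20 counts per library. The other 3 ids, c80825-g1, c104626-g1 and c104626-g7, averaged 16.4, 10.0 and 16.8 counts.

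**Figure D1:**
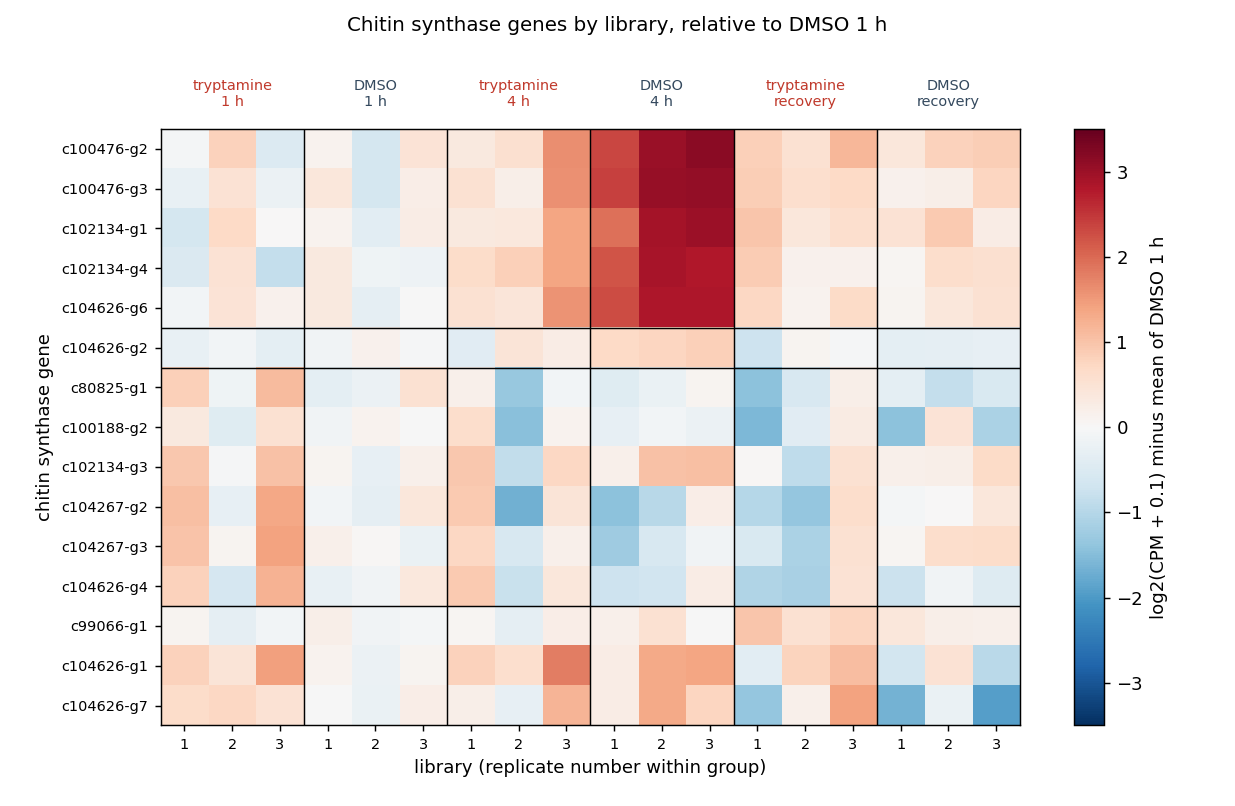
Log2(CPM + 0.1) of each chitin synthase gene (rows) in each of the 18 libraries (columns, replicate numbers within 6 groups), minus that gene's mean in the 3 DMSO 1 h libraries. The upper 5 genes are deepest red in the 3 DMSO 4 h libraries, and the block of 6 genes below c104626-g2 changes from library to library within groups.

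After 4 h, 5 of the 15 chitin synthase genes were lower with tryptamine than with DMSO, by 3.20-fold to 3.91-fold, and none was higher. The share of all tested genes called lower in this comparison was 1.27%. Calls are edgeR quasi-likelihood tests at a Benjamini-Hochberg adjusted p under 0.05 over all 24125 genes. The 5 genes lie in 3 components: c100476-g2, c100476-g3, c102134-g1, c102134-g4 and c104626-g6. The median log2 difference of the 15 genes was -0.35, beside 0.00 for all genes tested.

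The most read of the 5 was c100476-g3, at 19.1, 15.1 and 39.6 CPM in the tryptamine 4 h libraries, against 69.5, 108 and 111 CPM in the DMSO 4 h libraries. At 1 h it had 10.8, 18.7 and 11.4 CPM with tryptamine and 17.1, 8.42 and 15.4 CPM with DMSO. After recovery it had 24.0, 19.7 and 21.4 CPM with tryptamine and 14.4, 15.0 and 22 CPM with DMSO. The DMSO 4 h libraries stood above all others, the groups did not overlap at 4 h, and they overlapped at 1 h and after recovery. The log2 difference at 4 h was -1.97 (SE 0.35, edgeR adjusted p 0.00575). Fitted with the 4 h groups only, the adjusted p was 0.0603, which ends this call.

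The second of the pair from its component, c100476-g2, had 3.21, 3.72 and 7.99 CPM with tryptamine and 13.0, 20.9 and 22.9 CPM with DMSO at 4 h. Its 1 h levels were 2.38, 4.44 and 1.78 CPM with tryptamine and 2.73, 1.61 and 3.54 CPM with DMSO. Its recovery levels were 4.56, 3.65 and 5.70 CPM with tryptamine and 3.33, 4.45 and 4.60 CPM with DMSO. Again only the 4 h groups were apart, and tryptamine replicate 3 was the highest of its group. The log2 difference at 4 h was -1.93 (SE 0.36, edgeR adjusted p 0.00601).

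From component c102134, c102134-g4 had 21.5, 24.6 and 35.8 CPM with tryptamine at 4 h and 62.8, 103 and 96.3 CPM with DMSO. Its levels in the 1 h libraries were 9.60, 19.3 and 7.63 CPM with tryptamine and 17.3, 12.4 and 12.0 CPM with DMSO. Its levels in the recovery libraries were 25.4, 15.3 and 15.3 CPM with tryptamine and 14.4, 20.9 and 20.1 CPM with DMSO. The 4 h groups did not overlap and the other pairs of groups did. The log2 difference at 4 h was -1.68 (SE 0.32, edgeR adjusted p 0.00855). It was not called without tryptamine 4 h replicate 1 (adjusted p 0.0526) or without tryptamine 4 h replicate 2 (adjusted p 0.0610).

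Its neighbour c102134-g1 had 3.29, 3.37 and 6.92 CPM with tryptamine at 4 h and 9.98, 20.001 and 21.03 CPM with DMSO. Levels at 1 h were 1.64, 4.24 and 2.59 CPM with tryptamine and 2.80, 1.97 and 3.08 CPM with DMSO. Levels after recovery were 5.11, 3.43 and 3.92 CPM with tryptamine and 3.73, 4.93 and 3.13 CPM with DMSO. The lowest DMSO 4 h library, replicate 1, still lay above the highest tryptamine 4 h library. The log2 difference at 4 h was -1.91 (SE 0.35, edgeR adjusted p 0.00492).

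The smallest p of the family belonged to c104626-g6, with 7.25, 6.66 and 14.7 CPM with tryptamine at 4 h and 24.3, 35.7 and 35.7 CPM with DMSO. Its 1 h libraries had 4.61, 6.94 and 5.48 CPM with tryptamine and 6.29, 3.94 and 4.85 CPM with DMSO. Its recovery libraries had 8.17, 5.40 and 7.97 CPM with tryptamine and 5.24, 6.47 and 7.20 CPM with DMSO. Tryptamine replicate 3 was the highest of the treated libraries at 4 h, as in the other 4 genes. The log2 difference at 4 h was -1.74 (SE 0.27, edgeR adjusted p 0.00138).

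**Figure D2:**
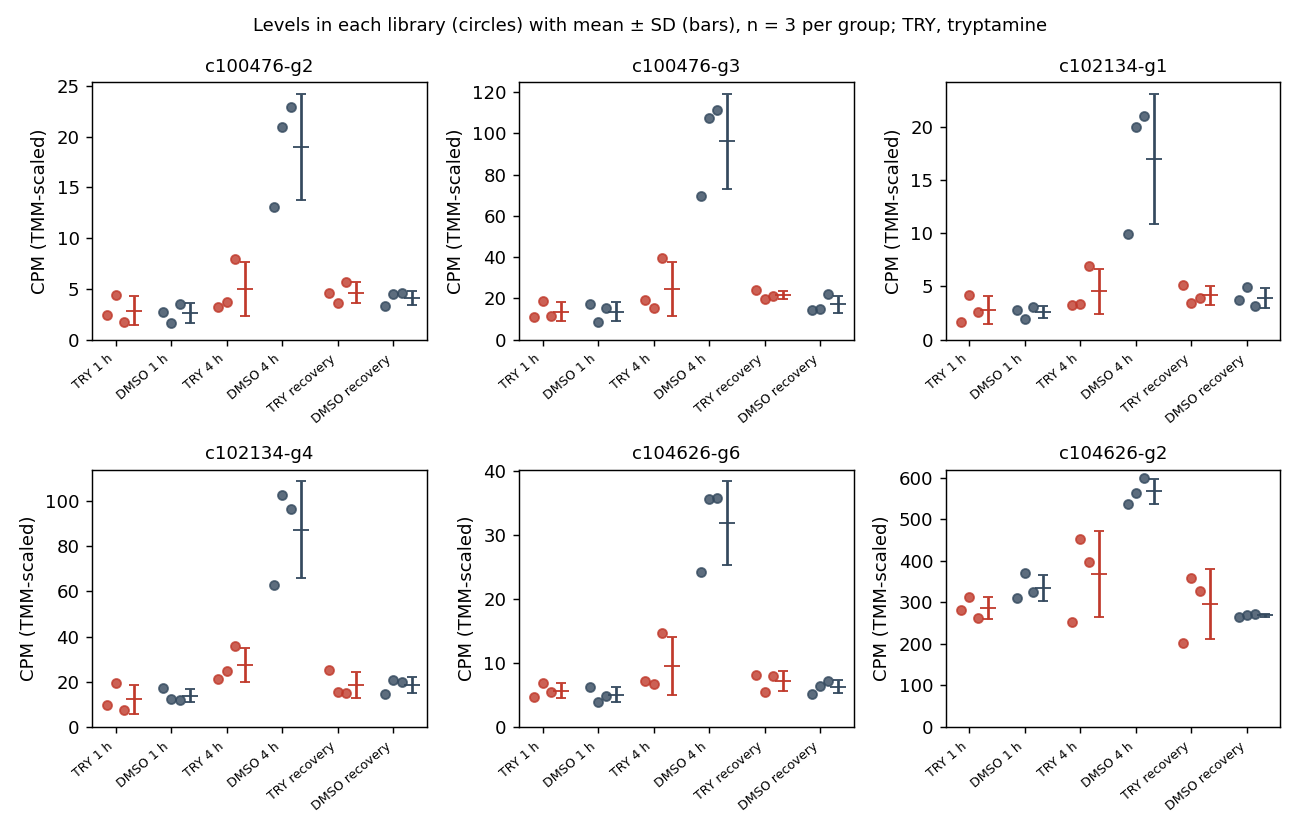
CPM in each library (circles) with the mean and SD of 3 libraries (bars) for the 5 genes called lower at 4 h and for c104626-g2, with tryptamine left of DMSO at 1 h, 4 h and recovery. For c100476-g3 the DMSO 4 h libraries lie at 69.5 to 111 CPM and the tryptamine 4 h libraries at 15.1 to 39.6 CPM.

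The dominant id, c104626-g2, did not pass the test at 4 h. It had 252, 453 and 397 CPM with tryptamine at 4 h and 538, 564 and 599 CPM with DMSO. For the 1 h groups the levels were 281, 314 and 262 CPM with tryptamine and 310, 370 and 325 CPM with DMSO. For the recovery groups the levels were 201, 359 and 328 CPM with tryptamine and 264, 270 and 272 CPM with DMSO. All 3 tryptamine 4 h libraries lay below all 3 DMSO 4 h libraries, and the spread among the tryptamine libraries was the wider. The log2 difference at 4 h was -0.63 (SE 0.19, edgeR adjusted p 0.145). With the replicate number of the labels as a block it was -0.66, and passed at an edgeR adjusted p of 0.0303. Without tryptamine 4 h replicate 1 it was -0.42 (adjusted p 0.428).

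Separation of the 4 h groups was thus seen in 6 genes, all lower with tryptamine, where 7.34% of all tested genes had the 3 tryptamine libraries below the 3 DMSO libraries. In the other 9 genes the 4 h groups overlapped, with log2 differences between -0.35 for c102134-g3 and 0.81 for c104267-g3. Summed over the 5 called genes, the level was 71.0 ± 29.6 CPM in tryptamine libraries and 251 ± 62.1 CPM in DMSO libraries at 4 h (SD, n = 3 each). Summed over all 15, it was 492 ± 97.8 CPM in tryptamine libraries and 873 ± 105 CPM in DMSO libraries. These 5 genes were chosen on this very difference, so the first pair of sums is a description. The sum over all 15 contains them and c104626-g2. The other 9 genes summed to 53.4 ± 26.8 CPM in tryptamine libraries and 54.8 ± 15.3 CPM in DMSO libraries at 4 h (SD, n = 3 each).

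At 1 h, edgeR called 0 of the 15 genes, as did DESeq2 and limma-voom, and the share of all genes called by edgeR was 0%. Of all 24125 genes, DESeq2 called 16 and limma-voom 0. An unadjusted p under 0.05 was reached by 1 of the 15, beside 1553 of 24125 genes. This gene, c104267-g3, was at 0.93 on the log2 scale (SE 0.40, edgeR adjusted p 0.748). The next were c104626-g1 at 1.10 (SE 0.53, adjusted p 0.775) and c80825-g1 at 0.70 (SE 0.43, adjusted p 0.815). The 5 genes called at 4 h had log2 differences between -0.19 and 0.19 at 1 h. Summed, they stood at 37.2 ± 14.2 CPM in tryptamine libraries and 37.8 ± 9.00 CPM in DMSO libraries (SD, n = 3 each).

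After recovery, edgeR again called 0 of the 15, as did DESeq2 and limma-voom, beside 1.86% of all genes called by edgeR in either direction. Of all 24125 genes, DESeq2 called 1110 and limma-voom 486. DESeq2 gave no adjusted p for 4 of the 15 here, so it could not call them. An unadjusted p under 0.05 was reached by 2 of the 15, beside 4157 of 24125 genes. The sparse c104626-g7 had 0.314, 1.10 and 2.75 CPM with tryptamine and 0.238, 0.809 and 0.177 CPM with DMSO, groups that overlapped. Its log2 difference was 1.83 (SE 0.65, edgeR adjusted p 0.145). The other, c99066-g1, had 11.2, 8.18 and 9.55 CPM with tryptamine and 7.46, 6.55 and 6.37 CPM with DMSO. Its groups did not overlap, and its log2 difference was 0.50 (SE 0.20, edgeR adjusted p 0.187). Next by p came c104626-g1, at 1.07 on the log2 scale (SE 0.59, adjusted p 0.367). The 5 genes called at 4 h had log2 differences between 0.01 and 0.33, and their sum was 56.3 ± 9.98 CPM in tryptamine libraries and 49.9 ± 8.04 CPM in DMSO libraries (SD, n = 3 each).

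Over the mean of the 3 schedules, edgeR called 0 of the 15 genes, beside 4.27% of all genes. An unadjusted p under 0.05 was reached by 8 of the 15, beside 5265 of 24125 genes. The smallest p belonged to c102134-g4, at -0.62 on the log2 scale (SE 0.18, edgeR adjusted p 0.0663). DESeq2 and limma-voom each called 1 of the 15 in this comparison, beside 1732 and 881 of 24125 genes. Without tryptamine 1 h replicate 2 edgeR called 1, beside 1115 of 24858 genes. Without tryptamine 4 h replicate 3 it called 2, beside 667 of 24790 genes. The next were c104626-g6 at -0.46 (SE 0.16, adjusted p 0.105) and c102134-g1 at -0.56 (SE 0.21, adjusted p 0.120). Of the 6 archaeocyte markers edgeR called 2 here, both higher with tryptamine, beside 476 of 24125 genes higher. They were PIWIL1,PIWIL4,PIWIL3 at 0.48 (SE 0.11, edgeR adjusted p 0.0238) and PIWIL2 at 0.60 (SE 0.17, adjusted p 0.0453). The first was called in 19 of 25 alternatives and lost without any one of tryptamine 1 h replicate 1, tryptamine 4 h replicate 1, DMSO 1 h replicates 2 and 3, DMSO 4 h replicate 3 and DMSO recovery replicate 3 (adjusted p up to 0.0580). PIWIL2 was called in 9 of 25 and lost in limma-voom, with the gene length correction and without any one library except tryptamine 1 h replicate 2, tryptamine 4 h replicate 2, tryptamine recovery replicate 3 and DMSO 4 h replicate 2 (adjusted p up to 0.119). Their part in the synthase values over the 3 schedules was not tested.

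**Figure D3:**
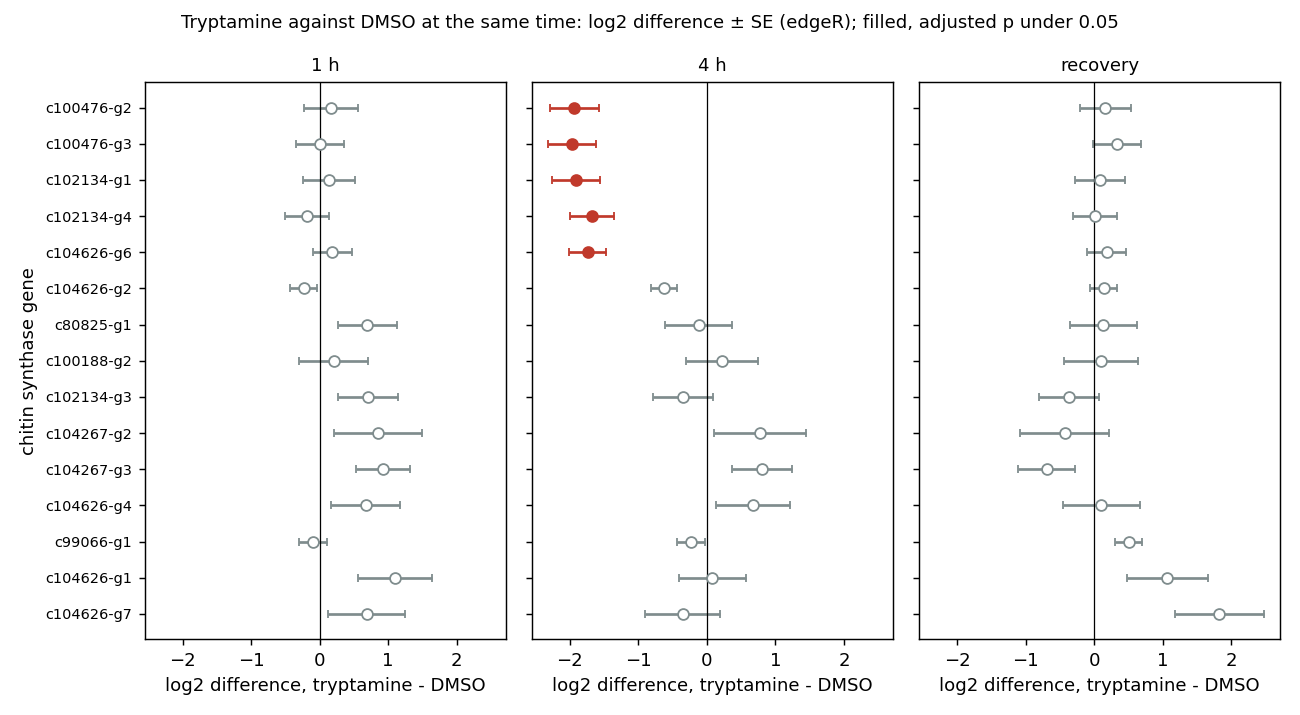
Log2 difference (tryptamine minus DMSO, edgeR) with its SE for the 15 chitin synthase genes at 1 h, 4 h and recovery, filled where the adjusted p is under 0.05. The 5 filled points, all at 4 h, lie between -1.97 and -1.68, and no gene is filled at 1 h or after recovery.

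Whether the tryptamine difference itself changed with time was tested as an interaction. Between 4 h and 1 h, edgeR called 0 of the 15, beside 0% of all genes, and limma-voom called 0, also beside 0. DESeq2 called 4 of the 15, beside 92 of 24125 genes. At an unadjusted edgeR p under 0.05 there were 5 of the 15, beside 994 of 24125 genes. The smallest p belonged to c104626-g6, whose difference was lower at 4 h by a log2 value of -1.93 (SE 0.40, edgeR adjusted p 0.0936). For c102134-g1 the change was -2.04 (SE 0.51, adjusted p 0.237), and for c100476-g2 it was -2.096 (SE 0.53, adjusted p 0.258). Without DMSO 4 h replicate 1 the count was 2, beside 90 of 24747 genes. Without tryptamine 4 h replicate 3 it was 1, beside 1 of 24790 genes.

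Between recovery and 4 h, edgeR called 0 of the 15, beside 0.0953% of all genes. At an unadjusted edgeR p under 0.05 there were 9 of the 15, beside 2674 of 24125 genes. DESeq2 called 5, beside 188 of 24125 genes, and limma-voom 0, beside 0. The fit with the replicate block called 1, c104626-g6, beside 39 of 24125 genes. The edgeR change was 1.92 for c104626-g6 (SE 0.39, adjusted p 0.0688), 2.30 for c100476-g3 (SE 0.49, adjusted p 0.0957) and 2.099 for c100476-g2 (SE 0.52, adjusted p 0.133). Without DMSO 4 h replicate 1 the count was 3, beside 110 of 24747 genes. Without tryptamine 4 h replicate 3 it was 2, beside 13 of 24790 genes. With the replicate block the change for c104626-g6 was 1.96 (edgeR adjusted p 0.0419). For the other 4 genes called at 4 h, edgeR over all libraries did not show the 4 h difference to differ from that at 1 h or after recovery, with or without the block.

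The DMSO libraries were also compared with each other. In DMSO at 4 h against DMSO at 1 h, 6 of the 15 genes were higher and none was lower, beside 2.81% of all genes higher. These tests share the DMSO 4 h libraries with the comparison that chose the 5 genes, so they are not independent of it. The log2 difference was 2.88 for c100476-g2 (SE 0.38, edgeR adjusted p 0.000123), 2.83 for c100476-g3 (SE 0.36, adjusted p 0.000174) and 2.72 for c102134-g1 (SE 0.36, adjusted p 0.000123). It was 2.67 for c104626-g6 (SE 0.28, edgeR adjusted p 1.48e-05) and 2.65 for c102134-g4 (SE 0.33, adjusted p 0.000123). The levels of these 5 were thus 6.28-fold to 7.36-fold higher at 4 h than at 1 h. The sixth, c104626-g2, was 1.69-fold higher, at 0.76 on the log2 scale (SE 0.20, edgeR adjusted p 0.0311). Its call was lost without any one of DMSO 1 h replicates 1, 2 and 3 and DMSO 4 h replicates 2 and 3, with adjusted p up to 0.130.

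In DMSO after recovery against DMSO at 4 h, 7 of the 15 genes were lower and none was higher, beside 4.33% of all genes lower. The DMSO 4 h libraries are again those that chose the 5 genes, so these tests are not independent of that choice. The log2 difference was -2.33 for c104626-g6 (SE 0.28, edgeR adjusted p 8.99e-05), -2.24 for c102134-g4 (SE 0.32, adjusted p 0.000647) and -2.48 for c100476-g3 (SE 0.35, adjusted p 0.000668). It was -2.12 for c102134-g1 (SE 0.35, edgeR adjusted p 0.00119), -2.20 for c100476-g2 (SE 0.36, adjusted p 0.00131) and -1.08 for c104626-g2 (SE 0.20, adjusted p 0.00251). The seventh, c104626-g7, had 0.238, 0.809 and 0.177 CPM after recovery and 1.17, 2.55 and 1.69 CPM at 4 h, at the depth of a few counts per library. Its log2 difference was -2.18 (SE 0.65, edgeR adjusted p 0.0477). That call was lost in limma-voom and without any one of DMSO 4 h replicates 2 and 3 and DMSO recovery replicates 1 and 3, with adjusted p up to 0.190. Cell type markers moved in this comparison too. The 5 pinacocyte and contractile genes summed to 3598 to 3900 CPM after recovery and to 4573 to 4719 CPM at 4 h, with no overlap, while the choanocyte and archaeocyte sums overlapped. None of these 5 was called by edgeR, DESeq2 or limma-voom. An unadjusted edgeR p under 0.05 was reached by 2 of them, beside 5223 of 24125 genes. Of the 6 archaeocyte genes edgeR called 2, DDX4 lower at -0.56 (SE 0.13, adjusted p 0.0163) and NANOS1 higher at 0.84 (SE 0.21, adjusted p 0.0207). Of 24125 genes, 1044 were lower and 612 higher. DDX4 was lost without any one of DMSO 4 h replicates 2 and 3 and DMSO recovery replicates 2 and 3, and NANOS1 without any one of DMSO 4 h replicates 2 and 3 and DMSO recovery replicate 1 (adjusted p up to 0.118). The part of cell types in the lower synthase levels was not tested.

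Between DMSO after recovery and DMSO at 1 h, edgeR called 0 of the 15, beside 0.535% of all genes. An unadjusted p under 0.05 was reached by 0 of the 15, beside 3227 of 24125 genes. DESeq2 and limma-voom called 0 as well, beside 479 and 131 of 24125 genes, though DESeq2 gave no adjusted p for 1 of the 15. The smallest p belonged to c104626-g7, at -1.28 on the log2 scale (SE 0.67, edgeR adjusted p 0.430), followed by c100476-g2 at 0.68 (SE 0.39, adjusted p 0.474). The dominant c104626-g2 followed at -0.32 (SE 0.19, adjusted p 0.516). The pinacocyte and contractile sums did not overlap here either, at 3598 to 3900 CPM after recovery and 4306 to 5278 CPM at 1 h.

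Within the tryptamine libraries, edgeR called 0 of the 15 genes at 4 h against 1 h, beside 0.348% of all genes. An unadjusted p under 0.05 was reached by 4 of the 15, beside 3014 of 24125 genes. DESeq2 called 1 of the 15, beside 668 of 24125 genes, and limma-voom 0, beside 4. The smallest p belonged to c102134-g4, whose 4 h libraries all lay above its 1 h libraries, at 1.16 on the log2 scale (SE 0.32, edgeR adjusted p 0.113). The next were c104626-g6 at 0.75 (SE 0.28, adjusted p 0.246) and c100476-g3 at 0.85 (SE 0.35, adjusted p 0.303).

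In tryptamine after recovery against tryptamine at 4 h, 1 gene was higher, beside 1.40% of all genes higher. This gene, c99066-g1, had 11.2, 8.18 and 9.55 CPM after recovery and 5.90, 4.58 and 6.67 CPM at 4 h, with no overlap. The log2 difference was 0.75 (SE 0.20, edgeR adjusted p 0.0373). The call was lost without any one of the 6 libraries compared, with adjusted p up to 0.213. In DMSO the same gene had 7.46, 6.55 and 6.37 CPM after recovery and 6.38, 8.21 and 5.65 CPM at 4 h, groups that overlapped. With tryptamine the pinacocyte and contractile genes summed to 3434 to 4040 CPM after recovery and to 4166 to 5145 CPM at 4 h, with no overlap, and their part in this call was not tested.

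The 5 genes called lower at 4 h kept similar proportions to each other in all 18 libraries. Relative to the counts of c100476-g3, those of c104626-g6 were between 0.274 and 0.481 in the 18 libraries, with a median of 0.370. For c102134-g4 the ratio was between 0.669 and 1.63, with a median of 0.932. For c100476-g2 it was between 0.156 and 0.297, and for c102134-g1 between 0.142 and 0.330. The chi-square of counts against constant proportions over the 18 libraries, per degree of freedom, was 2.83 for these 5, 22.5 for the other 10 and 40.9 for all 15. A value of 1 would be counting noise alone, and the 5 were chosen for a shared response, so these figures describe them and test nothing. The value also grows with the number of counts. The other 10 include c104626-g2, with 86259 counts in all, so the sets cannot be ranked by it.

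Their levels covaried across the 18 libraries, with Pearson r between 0.94 and 0.98 over the 10 pairs. Much of that is the difference between groups. After each group's mean was subtracted, r was between 0.72 and 0.91, with a median of 0.77. Between the 5 and c104626-g2, r was between 0.68 and 0.73 over the 18 libraries and between -0.05 and 0.21 within groups. Libraries share depth and scaling across genes, so r is given as a description.

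The 5 called genes were short, at 305 to 1233 summed bases, and 4 of them had a single transcript. Among the 10223 tested genes of that length range, the median log2 difference between tryptamine and DMSO at 4 h was -0.01, and 1.42% were called lower. In DMSO at 4 h against 1 h the median was 0.02, and 2.89% were called higher. Whether the 5 ids are pieces of one transcript was not tested.

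**Figure D4:**
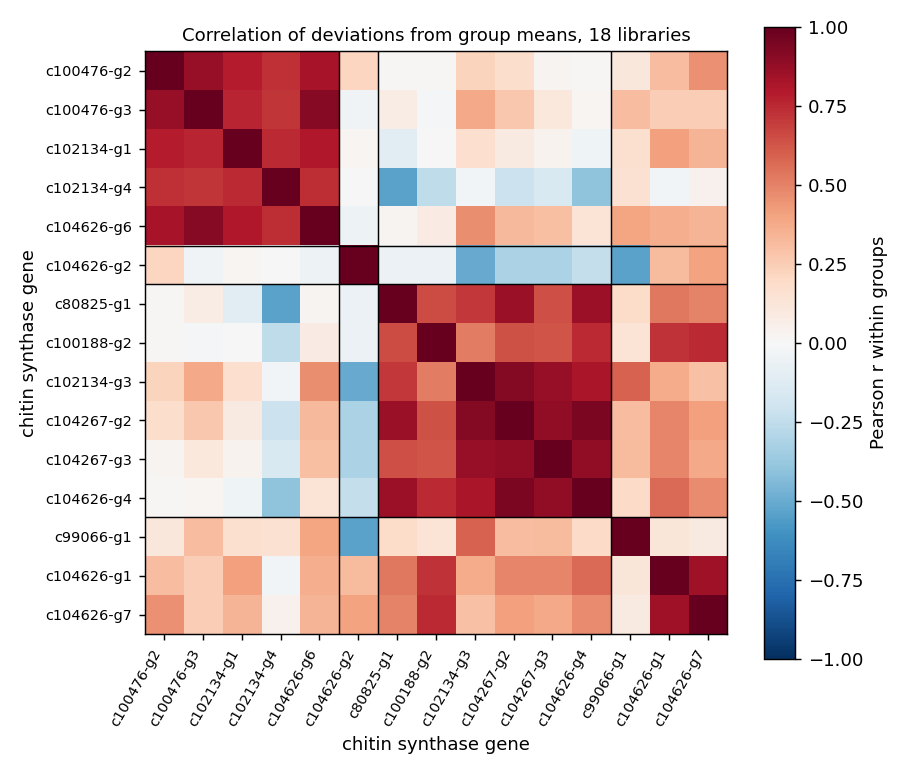
Pearson r between each pair of chitin synthase genes over 18 libraries after subtraction of group means (colour scale -1 to 1), with genes in the order of the heatmap by library. The upper left block of 5 genes has r between 0.72 and 0.91, and the central block of 6 genes has r between 0.52 and 0.94.

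Another 6 genes varied together from library to library within the tryptamine groups: c80825-g1, c100188-g2, c102134-g3, c104267-g2, c104267-g3 and c104626-g4. They were grouped after their values were seen, by this very covariation. The edge of the set is not sharp. Within groups c100188-g2 had r of 0.75 with c104626-g7 and 0.72 with c104626-g1, both outside the set. With c102134-g3, inside it, c100188-g2 had r of 0.52. The outside genes c104626-g1 and c104626-g7 had r of 0.85 with each other. Within groups the 15 pairwise r of the 6 genes were between 0.52 and 0.94, with a median of 0.82. In the 9 tryptamine libraries alone they were between 0.72 and 0.98, with a median of 0.91, and in the 9 DMSO libraries alone between -0.38 and 0.83, with a median of 0.46. Of the 6, 6 were above the group mean in tryptamine 4 h replicates 1 and 3 and 0 in replicate 2. At 1 h with tryptamine, 6 were above it in replicates 1 and 3 and 0 in replicate 2. After recovery with tryptamine, 6 were above it in replicate 3, 1 in replicate 1 and 2 in replicate 2. In DMSO replicates 1, 2 and 3 the numbers above it were 2, 2 and 4 at 1 h. They were 0, 3 and 5 at 4 h and 1, 3 and 4 after recovery. Of the DMSO libraries, only 4 h replicate 1 had all 6 on the same side of the group mean. Whether the covariation differs between treatments was not tested.

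The most read of these 6, c102134-g3, had 36.1, 10.2 and 30.9 CPM with tryptamine at 4 h and 21.03, 38.2 and 39.0 CPM with DMSO. Earlier, at 1 h, it had 35.9, 18.2 and 38.1 CPM with tryptamine and 20.1, 15.4 and 21.2 CPM with DMSO. In the recovery libraries it had 19.3, 10.2 and 27.1 CPM with tryptamine and 21.1, 21.6 and 30.1 CPM with DMSO. Within each tryptamine group replicate 2 was the lowest, and every pair of groups at the same time overlapped. For c104267-g2 the levels at 4 h were 16.7, 2.68 and 12.0 CPM with tryptamine and 3.24, 4.43 and 10.4 CPM with DMSO. At 1 h they were 18.5, 7.29 and 22.7 CPM with tryptamine and 8.34, 7.08 and 11.7 CPM with DMSO. After recovery they were 4.40, 3.43 and 13.7 CPM with tryptamine and 8.49, 8.90 and 11.7 CPM with DMSO. Tryptamine replicate 2 was again the lowest of its group at each time. The other 4 stayed at or under 8.37 CPM in every library. In any of the 11 comparisons edgeR, DESeq2 and limma-voom called 0 of the 6, with 0 to 1 at an unadjusted edgeR p under 0.05. Of all 24125 genes, edgeR called 0 to 1656 in a comparison, and 994 to 5265 reached that unadjusted p. A gene without a DESeq2 adjusted p counts as not called.

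The named gene whose pattern was most like that of c104626-g2, among 8845 named genes outside the family with a mean of at least 20 counts, was c103616-g1. It is annotated as UAP1,UAP1L1, the pyrophosphorylase that makes UDP-N-acetylglucosamine. Pearson r of log2 CPM was 0.93 over the 18 libraries and 0.82 within groups. The next were c104913-g1, named ADGRL3, with r of 0.91, and c104581-g2, named GPR126, with r of 0.89, both named as G protein-coupled receptors.

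Levels of UAP1,UAP1L1 at 4 h were 217, 381 and 320 CPM with tryptamine and 397, 435 and 469 CPM with DMSO. At 1 h they were 197, 269 and 196 CPM with tryptamine and 240, 304 and 221 CPM with DMSO. After recovery they were 223, 302 and 250 CPM with tryptamine and 235, 246 and 199 CPM with DMSO. The 4 h groups did not overlap and the others did, and tryptamine replicate 1 was low at 4 h in both UAP1,UAP1L1 and c104626-g2. The log2 difference between tryptamine and DMSO at 4 h was -0.50 (SE 0.19, edgeR adjusted p 0.258) and did not pass. In DMSO it was 0.77 at 4 h against 1 h (SE 0.19, edgeR adjusted p 0.0234) and -0.94 after recovery against 4 h (SE 0.19, adjusted p 0.00530). The first of these was lost without any one of DMSO 1 h replicates 1 and 3 and DMSO 4 h replicates 2 and 3, with adjusted p up to 0.137.

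**Figure D5:**
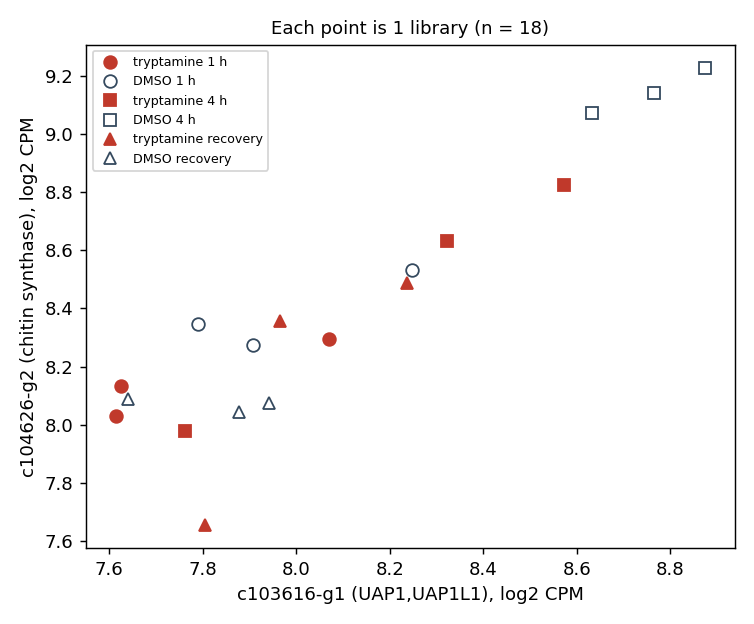
Log2 CPM of c104626-g2 (vertical) against that of UAP1,UAP1L1 (c103616-g1, horizontal), each point 1 of the 18 libraries, filled for tryptamine and open for DMSO, with circles for 1 h, squares for 4 h and triangles for recovery. The DMSO 4 h libraries lie at the upper right, and r is 0.93.

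For c100476-g3 the most alike named genes were c105143-g1 and c94017-g2, both named RNF213, with r of 0.93 each, and c103148-g5, named XAF1, with r of 0.92. In vertebrates RNF213 is a large ubiquitin ligase and XAF1 an interferon-induced gene. For c104626-g6 they were c94017-g2 (r 0.95), c103148-g5 (r 0.93) and c103533-g2, named MED25 after a Mediator subunit (r 0.92). For c100476-g2 they were c94017-g2 (r 0.92), c103533-g2 (r 0.92) and c94017-g1, a further RNF213 (r 0.91). Levels of c94017-g2 at 4 h were 1.87, 1.56 and 2.39 CPM with tryptamine and 5.84, 20.5 and 19.1 CPM with DMSO. Within groups the r of these pairs were lower, between 0.37 and 0.70.

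The genes around chitin were counted by lists. Of all 24125 genes, edgeR called 0, 363 and 449 between tryptamine and DMSO at 1 h, 4 h and recovery. An unadjusted p under 0.05 was reached there by 1553, 2830 and 4157 genes. Of the 4 hexosamine pathway genes, which make the substrate, 0 were called between tryptamine and DMSO on any schedule by edgeR, DESeq2 or limma-voom, with 0, 1 and 0 at an unadjusted p under 0.05 in edgeR at 1 h, 4 h and recovery. The list had a median log2 difference of -0.08 at 4 h beside 0.00 for all genes. The other 3 pathway genes, named GFPT2, GNPNAT1 and PGM3, had log2 differences between tryptamine and DMSO at 4 h of -0.24, 0.95 and 0.09, none past the threshold. Of 9 genes for chitin and N-acetylglucosamine breakdown and salvage, 7 were tested, and 0 were called between tryptamine and DMSO on any schedule by the same 3 tools, with 1 at an unadjusted p under 0.05 in edgeR on each schedule. The 2 not tested were named chitinase. The breakdown list's median log2 difference at 4 h was 0.11. In tryptamine after recovery against 4 h, 1 of the 7 was lower, beside 832 of 24125 genes lower. It was c100648-g1, named CTBS after the lysosomal chitobiase, at -0.83 (SE 0.23, edgeR adjusted p 0.0418). The CTBS call was lost when only the compared groups were fitted and without any one of tryptamine 4 h replicate 2 and tryptamine recovery replicates 2 and 3 (adjusted p up to 0.239).

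The list for other glycans that draw on UDP-N-acetylglucosamine held 11 genes, of which 10 were tested. Among them c9424-g1 is named MGEA5, a symbol of OGA, the enzyme that takes the sugar off intracellular proteins. It is not a user of this substrate, and the word hyaluronidase in its annotation belongs to an older name. Of the 10, edgeR called 0 at 1 h, 0 at 4 h and 1, higher with tryptamine, after recovery, beside 329 of 24125 genes higher. At 1 h, 0 reached an unadjusted p under 0.05, beside 1553 of 24125 genes, and DESeq2 and limma-voom called 0. At 4 h, 1 reached it, beside 2830 of 24125 genes. There DESeq2 called 1, beside 606 of 24125 genes, and limma-voom 0. The gene called after recovery was c96975-g1, named OGT after the enzyme that adds the sugar to intracellular proteins, at 6.64 ± 0.65 CPM in tryptamine libraries and 2.80 ± 1.08 CPM in DMSO libraries (SD, n = 3 each). Its log2 difference was 1.26 (SE 0.32, edgeR adjusted p 0.0496), and over the mean of the 3 schedules it was 0.99 (SE 0.19, adjusted p 0.00807). Over that mean 476 of 24125 genes were called higher. The recovery call was lost under 9 of 14 alternatives, among them leaving out any one of the 6 libraries (adjusted p up to 0.237). The call over the mean held in all 25 alternatives. The further tested ids named OGT, c78999-g1 and c104407-g1, were not called by edgeR in any comparison, so these calls concern c96975-g1 only. The branching enzyme named MGAT4A,MGAT4C was lower after recovery than at 4 h with DMSO, at -0.88 (SE 0.20, edgeR adjusted p 0.0117), and with tryptamine, at -0.88 (SE 0.20, adjusted p 0.0196). Of 24125 genes, 1044 were lower with DMSO and 832 with tryptamine in these comparisons. The DMSO call for MGAT4A,MGAT4C was lost without DMSO 4 h replicate 2 or DMSO recovery replicate 1, and the tryptamine call when only the compared groups were fitted and without tryptamine 4 h replicate 2 or 3 or tryptamine recovery replicate 2 (adjusted p up to 0.1005). MGAT1, which starts complex N-glycans, was higher in DMSO after recovery than at 4 h, at 0.39 (SE 0.12, edgeR adjusted p 0.0485), beside 612 of 24125 genes higher. The MGAT1 call was lost under 9 of 14 alternatives, among them leaving out any one of the 6 libraries (adjusted p up to 0.166).

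The skeleton list matched 14 fibrillar collagen genes, of which 13 were tested. One, c100522-g2, named COL1A1, was lower with tryptamine at 4 h, at 54.6 ± 16.3 CPM against 119 ± 8.83 CPM with DMSO (SD, n = 3 each). Its log2 difference was -1.13 (SE 0.26, edgeR adjusted p 0.0313), and the call was lost under 6 of 14 alternatives, among them leaving out tryptamine 4 h replicate 1 or 3 or any DMSO 4 h library (adjusted p up to 0.131). The list's median at 4 h was 0.08, with 8 of 13 positive, beside 50.6% of all genes positive. After recovery edgeR, DESeq2 and limma-voom each called 0 between tryptamine and DMSO. In edgeR 12 of 13 were positive, beside 47.4% of all genes, with a median of 0.45 beside -0.03 for all genes. An unadjusted p under 0.05 was reached by 5, beside 4157 of 24125 genes. In DMSO after recovery against 4 h, 4 of the 13 collagens were lower, beside 4.33% of all genes lower, at -1.17 for c100522-g2, -1.12 for c104506-g7, -1.05 for c110692-g1 and -1.04 for c102383-g2, with edgeR adjusted p between 0.00925 and 0.0295. Each of these 4 was lost without at least 1 of DMSO 4 h replicate 2 and DMSO recovery replicates 1 and 3 (adjusted p up to 0.158). All 13 were negative in this comparison, with a median of -0.67, where 50.8% of all genes were positive. All 13 were negative also in DMSO after recovery against 1 h, with a median of -0.59, where 51.7% of all genes were positive. There edgeR and limma-voom called 0 of the 13, and DESeq2 called 2, beside 479 of 24125 genes. An unadjusted edgeR p under 0.05 was reached by 9, beside 3227 of 24125 genes. Over the mean of the 3 schedules c110692-g1, also named COL1A1, was lower with tryptamine, at -0.51 (SE 0.13, edgeR adjusted p 0.0358), and was called in 16 of 25 alternatives. Of 24125 genes, 555 were lower there. The list as a whole had 8 of 13 positive, beside 50.7% of all genes, with a median of 0.28. The c110692-g1 call was lost with the gene length correction and without any one of tryptamine 1 h replicate 1, tryptamine recovery replicates 1 and 2, DMSO 1 h replicates 2 and 3, DMSO 4 h replicate 1 and DMSO recovery replicates 2 and 3 (adjusted p up to 0.0889). Of 26 myosin genes, 23 were tested and edgeR called 0 in any of the 11 comparisons. An unadjusted p under 0.05 was reached by 0 to 4 of them, beside 994 to 5265 of 24125 genes. DESeq2 called 1, in DMSO 4 h against 1 h, beside 1210 of 24125 genes, and limma-voom 0.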

How the data were processed

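Reads of 18 polyA libraries were aligned with STAR, per the submitters' processing notes; no version is stated in the sources at hand. The authors deposited raw counts, in read pairs assigned to each gene of an assembled transcriptome, from featureCounts 2.1.1 without strand and with multi-mapping pairs left out, per the file headers. The deposited length per gene sums its transcripts, so levels per kilobase of genes with several transcripts depend on which length is used.

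The members and the gene lists were chosen with earlier results of these data known. Counts were tested with edgeR 4.0.16 in R 4.3.3 (TMM scaling, filterByExpr by group, robust quasi-likelihood fit of 6 group means with 12 residual degrees of freedom). Tests were two-sided, with Benjamini-Hochberg adjustment over 24125 genes and a threshold of 0.05. CPM are TMM-scaled. 3 counts, the limit a count of 0 allows, equal 0.134 to 0.283 CPM across libraries, for counting error only. Members past the threshold are named with values in each comparison, or else the 3 of smallest p. Alternatives were DESeq2 1.42.0, limma-voom 3.58.1, median-of-ratios scaling, 2 other filters, a replicate block, the compared groups alone, each library left out, and a gene length correction chosen after seeing the data. DESeq2 gave no adjusted p for 4 of the 15 members in tryptamine against DMSO after recovery. It gave none for 1 member in the mean of the 3 schedules, DMSO recovery against 1 h and tryptamine 4 h against 1 h. The same held for tryptamine recovery against 4 h and for the change between recovery and 4 h. Such members count as not called. The procedure was tested on simulated data.

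Replicates differed by more than counting noise (chi-square per degree of freedom 6.88 to 37.2 over 18 pairs), so none was counted as a copy. The labels do not say that a replicate number marks a shared culture. Deviations of same-numbered libraries correlated at 0.33 to 0.40 between the 1 h groups and 0.12 to 0.19 between the 4 h groups, all above 0.1, but not in every recovery pair. No sequences are printed, since no sequence file was used here.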

Additional observations from a re-analysis of the deposited data

How the results depend on the processing

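At 4 h, tryptamine against DMSO gave 5 genes called, 6 with the replicate block, 4 in the compared groups alone and 4 to 5 with 1 library left out. DMSO 4 h against 1 h gave 5 to 6 and DMSO recovery against 4 h 6 to 7 with 1 library left out. Counts moved as follows. For tryptamine recovery against 4 h, 1 gene fell to 0 without a filter, to 0 in the compared groups alone and to between 0 and 0 with 1 library left out. For the mean of the 3 schedules, 0 became 1 in limma-voom, 1 in DESeq2 and 0 to 2 with 1 library left out (1 without tryptamine 1 h replicate 2, 2 without tryptamine 4 h replicate 3). For tryptamine 4 h against 1 h, 0 became 1 in DESeq2. For the change between 4 h and 1 h, 0 became 4 in DESeq2 and 0 to 2 with 1 library left out. For the change between recovery and 4 h, 0 became 1 with the replicate block, 5 in DESeq2 and 0 to 3 with 1 library left out. Calls over all genes moved too. In DESeq2 they went from 84 to 668 for tryptamine 4 h against 1 h. They went from 0 to 92 for the change between 4 h and 1 h, and from 23 to 188 for that between recovery and 4 h. Without DMSO 4 h replicate 1 edgeR called 90 and 110 genes for these changes. The cause was not tested. The replicate block changed the call of c104626-g2 at 4 h (-0.66, edgeR adjusted p 0.0303) and of c104626-g6 between recovery and 4 h, and of no other named gene. No direction reversed: of the values of named genes under alternatives, 849 kept their side of the threshold, 76 lost it and 24 passed it. Other scalings moved the median of all genes by less than 0.1 on the log2 scale.
Depth limits the 3 genes that average under 20 counts per library, and with 3 libraries a group a missed threshold does not show that values did not differ.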
